A study of Mus musculus with 145 samples.

Results

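Transcripts of 10 heat shock protein genes were followed in the dorsal skin of mice exposed to the ultraviolet light of a canopy sunbed: Hsp90aa1, Hsp90ab1, Hspa1a, Hspa1b, Hspa8, Hspb1, Hsph1, Dnajb1, Hspd1 and Hspe1. They were chosen by name, and all 10 were found among the 55416 genes of the count table and stayed above the filter on low counts, which kept 18677 genes. The canopy held 8 lamps of 100 W and gave 96.4% UVA and 3.6% UVB. Mice received 0 (sham), 5, 10, 20 or 40 mJ/cm2, and skin was collected at 0, 6, 24, 48, 72 or 96 h, which makes 30 groups. Each of the 145 libraries is a separate animal. Groups hold 5 animals, except 20 mJ/cm2 at 48 h and the 4 irradiated groups at 96 h, which hold 4. The labels state neither strain, sex nor age, and name no genetic change or further agent. The labels do not say whether animals were housed or handled in shared batches, so p-values measure the spread between these animals only.

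Heat shock proteins are chaperones: they bind unfolded or newly made proteins, keep them from clumping and help them fold. HSP90 proteins (Hsp90aa1, the inducible alpha form, and Hsp90ab1, the constitutive beta form) mature kinases and steroid receptors. HSP70 proteins (Hspa1a and Hspa1b, stress-inducible twins, and Hspa8, the constitutive form) take up unfolded segments. Dnajb1 hands clients to HSP70, and Hsph1, an HSP110 protein, exchanges its nucleotide. Hspb1, the small heat shock protein HSP27 (HSP25 in mice), holds unfolded proteins and is abundant in the differentiating layers of the epidermis. Hspd1 and Hspe1 encode HSP60 and HSP10, the barrel and lid of the mitochondrial chaperonin. Under heat and other stress that unfolds proteins, the transcription factor HSF1 binds heat shock elements in these genes' promoters, which are inverted repeats of GAA units.

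The promoters are shown because they carry the element by which the family is classically switched on together. RefSeq promoter windows (GRCm38.p6; the count table is on GRCm39) were present for 7 of the 10 genes, all but Hsp90aa1, Hsp90ab1 and Hspa8. A pair of adjoining units was searched as GAANNTTC or TTCNNGAA, each of which is its own reverse complement, so that both strands were covered and matches may overlap. Windows ran from 250 bases before to 50 bases after the start site. Such a pair stood in 6 of the 7 genes, which have 10 windows, and in 17% of all 27025 genes of the table (15.1% of its 32851 windows). An element of 3 units, in which the pair is followed by NNGAA or by NNTTC in alternation, stood in Hspd1, Hspe1 and Hsph1, against 0.662% of all genes. Dnajb1 held neither in its windows. The 120 bases from 150 to 31 before the start follow, 5′ to 3′ on the gene's strand, with the pairs in capitals.
Hspa1a: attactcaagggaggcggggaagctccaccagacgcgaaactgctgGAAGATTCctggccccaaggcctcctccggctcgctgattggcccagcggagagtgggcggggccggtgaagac
Hspa1b: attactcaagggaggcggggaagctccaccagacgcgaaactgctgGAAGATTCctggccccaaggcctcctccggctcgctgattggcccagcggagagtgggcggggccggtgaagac
Hspb1: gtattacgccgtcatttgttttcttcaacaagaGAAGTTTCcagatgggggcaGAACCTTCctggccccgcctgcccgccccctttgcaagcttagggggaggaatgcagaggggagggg
Hspd1: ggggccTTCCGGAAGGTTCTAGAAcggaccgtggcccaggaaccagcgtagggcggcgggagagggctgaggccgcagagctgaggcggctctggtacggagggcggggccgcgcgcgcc
Hspe1: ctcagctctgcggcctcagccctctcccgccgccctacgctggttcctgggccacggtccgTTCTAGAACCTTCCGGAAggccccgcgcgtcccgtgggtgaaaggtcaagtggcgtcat
Hsph1: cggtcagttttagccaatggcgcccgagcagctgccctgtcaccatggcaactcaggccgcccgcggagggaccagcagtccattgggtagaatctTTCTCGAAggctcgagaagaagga
These windows lie at chr17:34972187-34972306 (minus strand, Hspa1a), chr17:34959269-34959388 (minus, Hspa1b), chr5:135887769-135887888 (plus, Hspb1), chr1:55087963-55088082 (minus, Hspd1), chr1:55087998-55088117 (plus, Hspe1) and chr5:149636346-149636465 (minus, Hsph1). The printed windows of Hspa1a and Hspa1b are the same letter for letter, and their whole 300-base promoters differ at 4 bases (98.7% identical). The Hspd1 and Hspe1 windows come from overlapping stretches of chromosome 1 read from opposite strands, so 1 run of 3 overlapping pairs, between 1 start site of Hspd1 and that of Hspe1, appears in each. In Hsph1 the element of 3 units lies after the start site and is not printed. In Hspb1 there are 2 separate pairs, 117 and 97 bases before the start. A match describes these letters only, and binding was not measured.

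Libraries held 0.18 to 64.6 M counts each, where M stands for mega; the median was 11.1 M, and 2 held under 1 M (10 mJ/cm2 at 6 h replicate 5 and 20 mJ/cm2 at 0 h replicate 5). All 8 keratinocyte markers and all 6 fibroblast markers were measured, as skin should give, and so were all 14 skeletal muscle markers, whose mean log2 level ran from 10.08 to 11.49 in sham libraries at 6 h. Mitochondrially encoded transcripts took 1.61% to 34.8% of the counts. Libraries also differed in how much they favoured genes rich in G and C. This GC tilt is the median log2 CPM (library-scaled counts) of the 25% of genes with the highest GC share (54.5% and above) minus that of the 25% with the lowest (45.1% and below). At 6 h its extremes were -2.00 and 0.44 among sham animals, and -1.56 and 0.65 among those given 40 mJ/cm2, so it spread widely within groups. Fewer cells of a type and less RNA per cell cannot be told apart in whole skin.

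In unirradiated skin the constitutive chaperones stood far above the inducible ones by median level. Over the 30 sham libraries the median level per kilobase of transcript was 537.5 CPM for Hspa8 and 437 for Hsp90ab1. Hspb1 (102), Hspd1 (87.5), Hspe1 (80.6) and Hsp90aa1 (58.1) formed a middle group, and Dnajb1 (19.3), Hsph1 (18.3), Hspa1b (16.4) and Hspa1a (7.00) the lowest. Neighbours in this order overlapped in their ranges over libraries except at 1 step: the lowest Hsp90ab1 library (244 CPM per kilobase) lay above the highest Hspb1 library (209.7). The ranges of the HSP90 genes did overlap, since Hsp90aa1, farther down the order, reached 278.7 CPM per kilobase in its highest library. Spread between animals of a group differed as much as level did. The within-group SD on the log2 scale was 1.01 for Hspb1, higher than in 91.8% of genes, 0.61 for Hsp90aa1 (57.6%) and 0.24 for Hspa8 (7.24%), with a median of 0.55 over all genes. Between 23.7% and 61.9% of the 75-base windows of Hspe1, Hspd1, Hsp90aa1, Hspb1, Hspa1a, Hspa1b and Hspa8 also occur in other transcripts. For Hspa1a (54.2%) and Hspa1b (55.8%) these are mainly each other's, and for the rest mainly processed copies, so the split of their expected counts is uncertain. Hsp90ab1 shared 0.664% of its windows, and Hsph1 and Dnajb1 shared 0%.

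In the fits as reported, Hsp90aa1 was the 1 member called against sham (adjusted p below 0.05), at 40 mJ/cm2 at 6 h. Its value at 24 h, given below, was as large, and members were not tested against each other. The sham animals at 6 h had 140.3, 287, 187, 309.6 and 185 CPM, and the animals given 40 mJ/cm2 had 291, 599, 287, 675 and 471 CPM. Of the irradiated animals, 3 of 5 stood above the highest sham animal and the other 2 lay inside the sham range. Groups are compared below as log2 fold changes, on which 1 is a rise by 2 times, with their SE after the sign ±. Hsp90aa1 was higher by 1.08 ± 0.26 (95% interval 0.54 to 1.62; adjusted p = 0.0153, edgeR quasi-likelihood test with Benjamini-Hochberg adjustment over all genes; n = 5 and 5). In this comparison 4.89% of the 18677 genes passed the threshold of adjusted p below 0.05 (400 higher and 514 lower), and Hsp90aa1 was the 1 member of 10 that did. Titles of libraries end in R1_001 or R1, and with each kind alone the value was 0.94 ± 0.35 (adjusted p = 0.256, 3 animals against 3) and 1.18 ± 0.43 (adjusted p = 0.881, 2 against 2) by the same test. The call was lost without sham replicate 5 (0.98, adjusted p = 0.055) and without 40 mJ/cm2 replicate 2 (0.88, adjusted p = 0.0786), and it was also lost with all 145 libraries in 1 fit (1.06, adjusted p = 0.0797).

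**Figure D1:**
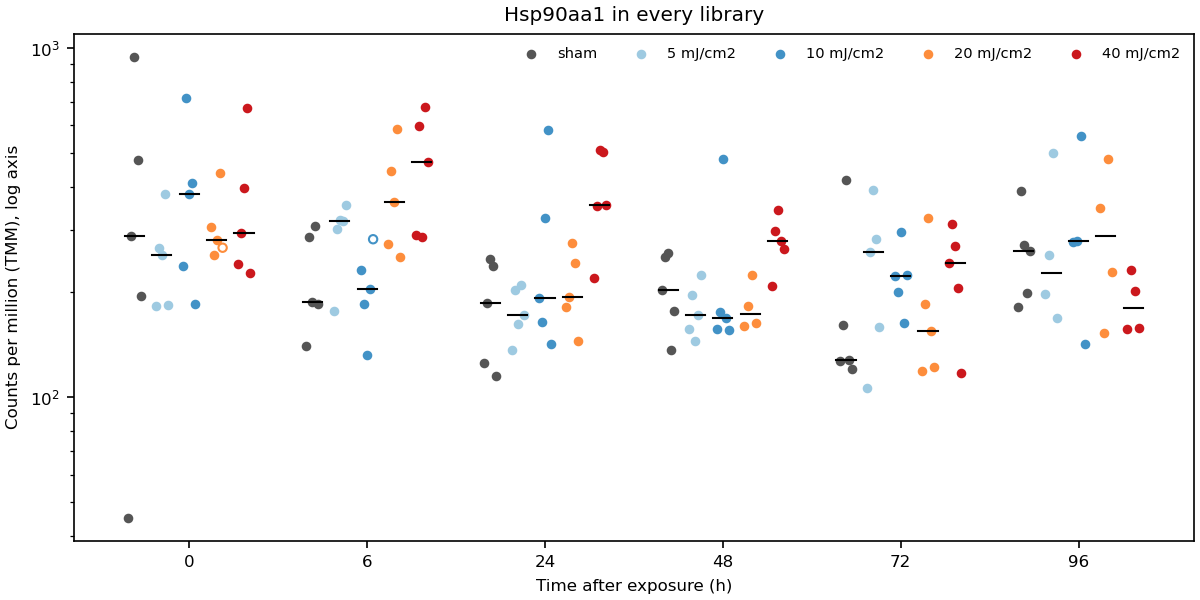
Hsp90aa1 in CPM on a log axis in every library, by dose within each time (times are evenly spaced); each point is an animal, open circles are libraries under 1 M counts and black bars are group medians. At 6 h the 40 mJ/cm2 animals run from 287 to 675 against 140.3 to 309.6 in sham, while at 0 h the sham animals alone run from 45.1 to 942.

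At the lower doses at 6 h Hsp90aa1 gave values on either side of sham. The animals given 20 mJ/cm2 had 275, 443, 361, 584 and 251 CPM, of which 3 exceeded every sham animal. Their log2 fold change was 0.79 ± 0.26 (adjusted p = 0.249), in a comparison where 0.434% of genes were called. At 5 mJ/cm2 the levels were 177, 303, 322, 319 and 356 CPM, and at 10 mJ/cm2 they were 230.4, 185, 132, 204 and 283 CPM. So 3 of the 5 mJ/cm2 animals exceeded every sham animal, while those given 10 mJ/cm2 lay within the sham range or, in 1 case, below it. No gene of the table was called at 5 or 10 mJ/cm2 at any time (0%). All doses of a time share the same sham animals. Among the irradiated groups alone, the slope of Hsp90aa1 per log2 unit of dose at 6 h was 0.29 ± 0.08 (adjusted p = 0.0549), just short of the threshold that 3.17% of genes passed. With DESeq2 that slope had an adjusted p of 0.0188, without a filter on low counts 0.0374, and without the 2 shallow libraries 0.0447.

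By 24 h the difference in Hsp90aa1 at 40 mJ/cm2 was as large in value but missed the threshold. Sham animals had 125, 186, 249, 237 and 115 CPM, and irradiated animals 219, 353, 509, 504 and 354 CPM. Of these, 4 of 5 stood above the highest sham animal. The log2 fold change was 1.08 ± 0.32 (adjusted p = 0.0704), where 2.92% of genes were called. DESeq2 gave 1.10 with an adjusted p of 0.0236, while the muscle level as a covariate gave 0.36 with an adjusted p of 0.203. Animals titled R1_001 gave 0.95 ± 0.36 and those titled R1 gave 1.28 ± 0.58.

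At 48, 72 and 96 h the groups overlapped. At 48 h sham animals had 202, 252, 259, 136 and 176 CPM and animals given 40 mJ/cm2 had 208, 298, 343, 279 and 266 CPM (0.42 ± 0.26, adjusted p = 0.410), and 4 of the 5 stood above the highest sham animal. At 72 h, sham had 127, 161, 419, 128 and 120.1 CPM and 40 mJ/cm2 had 242, 313, 271, 205 and 117 CPM (0.33 ± 0.38, adjusted p = 0.920). At 96 h, sham had 181, 389, 272, 199 and 263 CPM and the 4 irradiated animals had 157, 231, 202 and 157 CPM (-0.50 ± 0.40, adjusted p = 1). At 0 h the values were 45.1, 288, 942, 477 and 194 CPM in sham and 240.3, 295, 398, 674 and 227 CPM at 40 mJ/cm2, where sham alone covered the whole range (-0.11 ± 0.50). Whether the effect at another time differed from that at 6 h was tested directly in a fit of all libraries. No member was called in any of these 5 differences, which called 1.71%, 0.155%, 0.985%, 1.11% and 1.29% of genes at 0, 24, 48, 72 and 96 h; at an unadjusted p below 0.05 they held 1, 0, 0, 1 and 1 members, against 10.9%, 5.76%, 10.7%, 9.59% and 9.64% of genes. For Hsp90aa1 the effect at 96 h minus that at 6 h was -1.58 ± 0.55 (adjusted p = 0.155; unadjusted p = 0.00464) and that at 24 h minus 6 h was 0.02 ± 0.52.

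Hsp90ab1, the constitutive partner, gave no call at any dose or time. At 6 h its sham animals had 1074, 1108, 1112, 663 and 1036 CPM and those given 40 mJ/cm2 had 1209.6, 1186, 1164, 760.5 and 1187 CPM. In each group replicate 4 was low and the other 4 were close together. Those libraries had the lowest GC tilt of their groups, at -2.00 and -1.56. The log2 fold change was 0.17 ± 0.23 (95% interval -0.31 to 0.64), and at 24 h it was -0.01 ± 0.19.

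**Figure D2:**
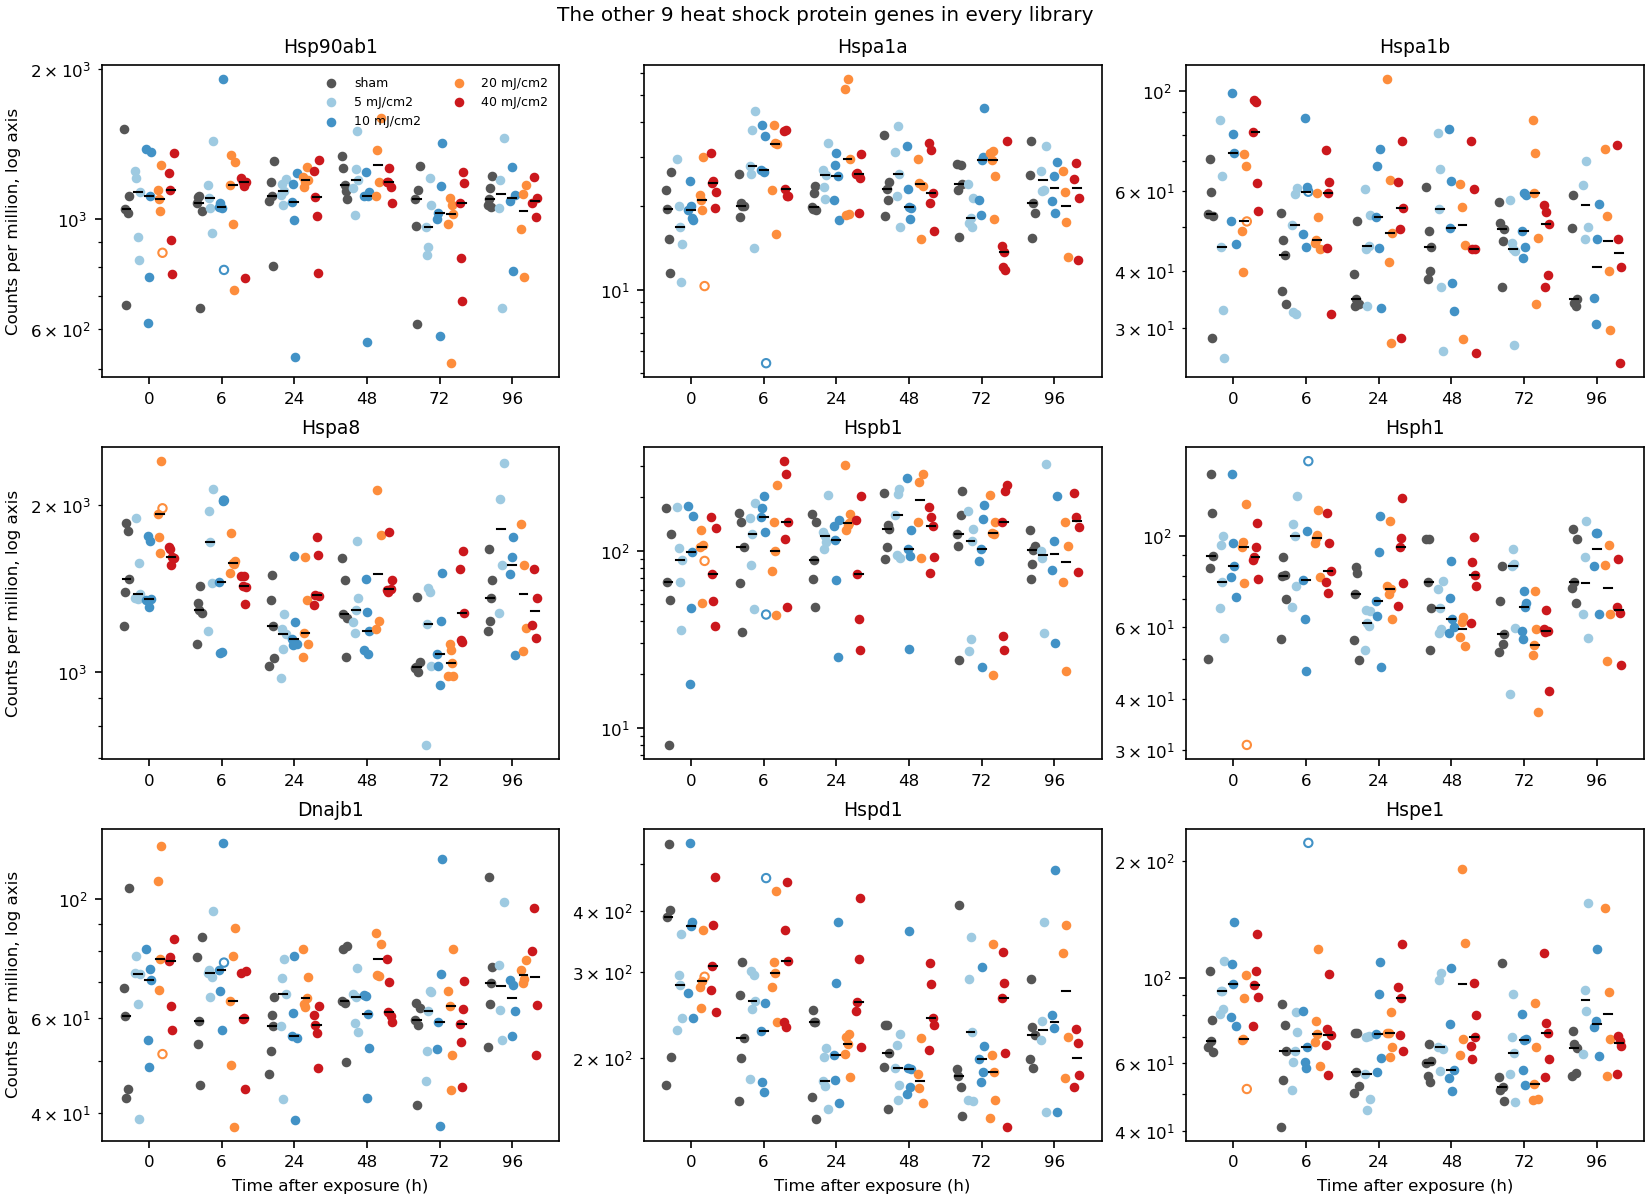
The other 9 members in CPM on log axes in every library, by dose within each time; points are animals, open circles are libraries under 1 M counts black bars are group medians, and the axes differ between panels. Within groups Hspb1 spreads most (SD 1.01 on the log2 scale) and Hspa8 least (0.24).

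The cytosolic HSP70 genes and their partners gave no call against sham in the fits without a covariate. Hspa8, the constitutive HSP70 that takes part in most folding in unstressed cells, had 1124, 1329.7, 1294, 1427 and 1279.5 CPM in sham animals at 6 h. At 20 mJ/cm2 it had 1509.4, 1781, 1569, 1564 and 1587 CPM, so that all 5 lay above the highest sham animal. This was the only member and dose at which irradiated and sham animals did not overlap at any time. In that comparison 2.89% of all genes did not overlap. Over all doses and times the share ran from 0.134% to 12.1%, so 1 such case among the members does not set Hspa8 apart. The log2 fold change of Hspa8 at 20 mJ/cm2 was 0.32 ± 0.18 (adjusted p = 0.649), not a call. At 40 mJ/cm2 Hspa8 had 1489, 1430.2, 1487, 1326 and 1424 CPM, overlapping with sham (0.18 ± 0.18). At 5 mJ/cm2 at 6 h, 4 of 5 animals exceeded every sham animal in Hspa8. That log2 fold change was 0.36 to 0.41 over the alternative settings, without a call. No member separated completely at 40 mJ/cm2, where 1.45%, 7.57%, 4.34%, 12.1%, 1.83% and 3.06% of genes did at 0, 6, 24, 48, 72 and 96 h.

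Hspa1a and Hspa1b, the twin genes whose promoters above carry the same pair of units, gave no call at any dose or time. Hspa1a at 24 h had 19.8, 19.5, 22.1, 23.6 and 19.3 CPM in sham and 52.4, 18.6, 56.8, 18.7 and 29.5 CPM at 20 mJ/cm2. The irradiated animals fell apart, 3 above every sham animal and 2 below (0.77 ± 0.26, unadjusted p = 0.00691, adjusted p = 0.454), where 0.075% of genes were called. In the same comparison Hspa1b gave 0.60 ± 0.30 (adjusted p = 0.762). At 72 h Hspa1a leaned the other way at 40 mJ/cm2, with 14.4, 12.1, 13.6, 11.8 and 34.2 CPM. Sham animals had 28.2, 22.8, 15.5, 27.9 and 23.9 CPM. So 4 irradiated animals lay below every sham animal and 1 above. The effect of Hspa1a at 72 h minus that at 6 h ran from -0.89 to -0.80 over the alternative settings, without a call. Directly after exposure, at 0 h, Hspa1b had 53.3, 70.8, 59.8, 28.4 and 52.9 CPM in sham and 81.0, 95.6, 94.7, 62.6 and 54.4 CPM at 40 mJ/cm2. Here 3 of 5 irradiated animals exceeded every sham animal (0.54 ± 0.26, unadjusted p = 0.0478, adjusted p = 1). No gene was called at 0 h at this dose (0%), nor at 20 mJ/cm2 at 0, 72 or 96 h (0% each). At 10 mJ/cm2 at 6 h, 3 of 5 animals exceeded every sham animal in Hspa1b, 1 of them a library under 1 M counts. That log2 fold change was 0.44 to 0.53 over the alternative settings, without a call. Expected counts of the twins are split by estimate, so their separate values are uncertain.

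Hsph1, the HSP110 exchange factor, had 55.7, 72.4, 83.8, 81.3 and 49.9 CPM in sham animals at 24 h and 67.5, 94.1, 99.0, 124 and 76.9 CPM at 40 mJ/cm2. It was higher by 0.43 ± 0.21, with an adjusted p of 0.307, and 3 of 5 irradiated animals exceeded the sham range. Dnajb1, the J-domain partner of HSP70, stayed near sham, at -0.02 ± 0.24 at 6 h and 0.02 ± 0.17 at 24 h. Its 95% interval at 24 h, -0.33 to 0.37, sets how large a change these animals could hide.

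Hspd1 and Hspe1, the mitochondrial chaperonin pair whose start sites flank 1 shared element, were higher in value at 6 and 24 h without a call. Hspd1 at 6 h had 163, 269, 199, 314 and 219 CPM in sham and 236, 366, 231, 459.8 and 317 CPM at 40 mJ/cm2, of which 3 of 5 exceeded every sham animal. The log2 fold change was 0.48 ± 0.22 (adjusted p = 0.246). At 24 h it was 0.50 ± 0.21 (adjusted p = 0.231), with sham at 166, 251, 237, 237 and 149 CPM and irradiated animals at 249.8, 260.7, 319, 427 and 210.4 CPM. Without 40 mJ/cm2 replicate 4 it was 0.32, and with the muscle level as a covariate 0.09. Hspe1 at 24 h had 50.3, 71.8, 57.1, 72.0 and 52.3 CPM in sham and 94.8, 71.1, 88.4, 122 and 64.6 CPM at 40 mJ/cm2. Again 3 of 5 stood above the sham range (0.54 ± 0.19, unadjusted p = 0.00858, adjusted p = 0.121). With the muscle level as a covariate it was 0.28.

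The largest value of Hspe1 came at another dose and time and rested on a few animals. At 48 h sham animals had 60.1, 55.6, 67.4, 53.5 and 60.7 CPM, and the 4 animals given 20 mJ/cm2 had 63.1, 191, 69.5 and 123 CPM. Of those, 2 stood far above sham and 2 within or next to its range (0.86 ± 0.27, adjusted p = 0.102, where 0.482% of genes were called). The value passed the threshold with DESeq2 (adjusted p = 0.0429), without a filter on low counts (0.0202), with the muscle level as a covariate (0.0357), and without 20 mJ/cm2 replicate 1 (0.0213) or replicate 3 (0.0314), both of them animals near sham. Without 20 mJ/cm2 replicate 2, the animal at 191 CPM, it was 0.50 (adjusted p = 0.336), and that library is 1 of 5 titled as repeats. At 40 mJ/cm2 at 48 h, with 66.4, 61.7, 96.9, 70.4 and 80.0 CPM, it was 0.32 ± 0.25. Hsph1 at 20 mJ/cm2 at 48 h went the other way in value, at -0.43 ± 0.18 (adjusted p = 0.190).

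Hspb1, the small heat shock protein of the epidermis, spread so widely between animals that its changes could not be resolved. At 6 h it had 163, 65.5, 145, 34.7 and 105 CPM in sham and 321, 116, 273, 48.2 and 146 CPM at 40 mJ/cm2. The irradiated group held both 2 animals above every sham animal and 1 near the bottom of the sham range. The log2 fold change was 0.80 ± 0.48 (95% interval -0.19 to 1.79; adjusted p = 0.424). At 24 h, with 162, 69.5, 88.4, 48.3 and 145 CPM in sham and 149.8, 73.6, 41.2, 27.4 and 204 CPM at 40 mJ/cm2, it was -0.05 ± 0.49.

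As a group, the members' values leaned above sham at 6 h at every dose, also at those with no called gene. At 5, 10, 20 and 40 mJ/cm2, 10, 9, 9 and 9 of 10 values lay above 0, with medians of 0.26, 0.32, 0.32 and 0.31 against 0.02, 0.02, 0.02 and 0.04 over all genes, and all of these share the same 5 sham animals. Several members also varied together or in opposition between animals, as given below. The members in these counts are therefore not independent of each other. At 24 h 5, 8, 10 and 8 of 10 lay above 0, with medians of 0.03, 0.19, 0.24 and 0.36 against 0.05 over all genes at 40 mJ/cm2. At 40 mJ/cm2 the exceptions were Dnajb1 at 6 h and Hsp90ab1 and Hspb1 at 24 h, and with RLE size factors Hsp90ab1 at 24 h stood at 0.01. At 48, 72 and 96 h the members' medians were 0.06, 0.06 and -0.02. At 48 h 7.73% of all genes were called, more than at any other time at this dose, but 0 of the 10 members (also 0 at an unadjusted p below 0.05, against 19.9% of genes, and 0 by DESeq2). At 72 h 1.26% and at 96 h 0.118% were called and again 0 members by either tool, with 0 at an unadjusted p below 0.05 (11% and 4.74% of genes). At 24 h, 3 members had an unadjusted p below 0.05 (Hsp90aa1, Hspd1 and Hspe1), against 16.4% of genes. The slope over dose called 0 members at each time (0%, 1.42%, 7.54%, 0.412% and 0.0161% of genes at 0, 24, 48, 72 and 96 h). At 24 h 5 members had a slope above 0 at an unadjusted p below 0.05, against 11.4% of genes at that p in either direction: Hsp90aa1 (0.29 ± 0.10), Hsph1 (0.17 ± 0.07), Hspd1 (0.17 ± 0.07), Hspe1 (0.16 ± 0.06) and Hspa8 (0.11 ± 0.05). Slopes were not refitted with a library covariate. Median GC tilt at 24 h was 0.18, -0.01, 0.14 and -0.54 at 5, 10, 20 and 40 mJ/cm2, and its part in these slopes was not tested. Between 40 and 20 mJ/cm2 no member was called, against 0.00535%, 0%, 0.166%, 7.81%, 0.418% and 0.00535% of genes at 0, 6, 24, 48, 72 and 96 h (0, 0, 2, 3, 2 and 0 members at an unadjusted p below 0.05, against 2.11%, 5.4%, 10.7%, 23.6%, 7.61% and 9.32% of genes, and 0 by DESeq2).

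**Figure D3:**
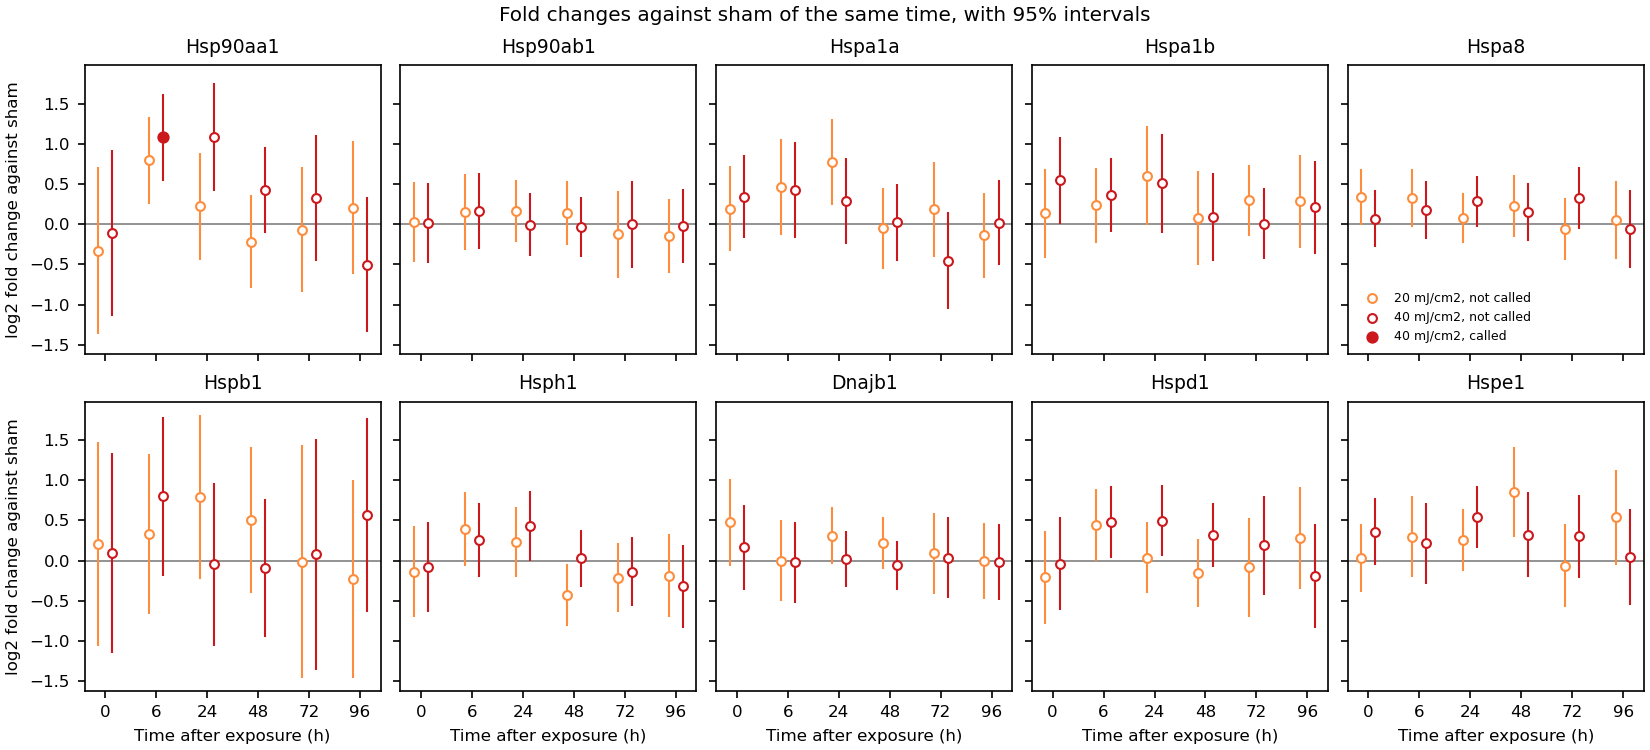
Log2 fold change against sham of the same time for each member at 20 and 40 mJ/cm2, by time, with 95% intervals; filled points passed adjusted p below 0.05. Hsp90aa1 at 40 mJ/cm2 at 6 h, at 1.08, is the filled point.

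The levels of several members moved with properties of the library, and fits that carry those properties gave more calls. With GC tilt as a covariate, which was chosen after seeing the data, 2 members were called at 40 mJ/cm2 at 6 h, where 14.7% of genes were: Hsp90aa1 (1.23 ± 0.18, adjusted p = 0.000113) and Hspd1 (0.60 ± 0.16, adjusted p = 0.0105). At 24 h, 4 were, against 19.7% of genes. These were Hsp90aa1 (1.10 ± 0.16, adjusted p = 0.000111), Hspd1 (0.46 ± 0.09, adjusted p = 0.00183), Hsph1 (0.42 ± 0.10, adjusted p = 0.00777) and Hspe1 (0.52 ± 0.14, adjusted p = 0.011). The values themselves were close to those without the covariate, and the SE of Hsp90aa1 at 24 h went from 0.32 to 0.16. At 48 h Hsp90aa1 (0.47 ± 0.15) and Hspd1 (0.35 ± 0.11) were called, with 14.8% of genes. At 20 mJ/cm2 at 6 h Hsp90aa1 (0.71 ± 0.18, adjusted p = 0.0296) was called, with 3.44% of genes.

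The mitochondrial share as a covariate called the same members at 6, 24 and 48 h at 40 mJ/cm2 (2, 4 and 2, against 9.41%, 18.2% and 11.4% of genes). Hsp90aa1 stood there at 1.24 ± 0.22, 1.32 ± 0.16 and 0.69 ± 0.20. The share itself was lower in value at 40 mJ/cm2 than in sham. At 48 h it ran from 2.14% to 3.63% (median 2.37%), against 3.15% to 5.87% (median 4.07%) in sham. At 24 h the medians were 5.3% and 7.12%, with overlapping ranges. The muscle level as a covariate gave a different picture. At 6 h Hsp90aa1 was called (1.11, adjusted p = 0.00115; 9.86% of genes), but at 24 h it fell short at 0.36 (adjusted p = 0.203) and no member was called, against 24% of genes. At 48 h the 1 member called was Hspb1 (1.40 ± 0.35, adjusted p = 0.00829; 25.9% of genes), whose value was -0.09 without a covariate, -0.15 with GC tilt and -0.65 with the mitochondrial share. The marker counts that follow come from the fits without a covariate, which called 4.89%, 2.92% and 7.73% of genes at 6, 24 and 48 h. Skeletal muscle markers themselves differed with dose at 48 h. Of these, 10 of 14 were lower at 40 mJ/cm2, with a mean log2 level of 9.70 to 10.59 against 10.90 to 11.66 in sham. At 6 h 0 of 14 and at 24 h 1 of 14 were called, that 1 lower. The mean log2 level at 24 h was nonetheless lower in value at 40 mJ/cm2. It ran from 9.29 to 10.95 (median 10.58), against 10.64 to 11.34 (median 11.17) in sham. Of the other marker lists at 6 h, 1 of 8 keratinocyte and 1 of 7 neutrophil genes were higher and 1 of 5 T cell genes was lower at 40 mJ/cm2, and those of hair shaft, fibroblast, adipocyte, macrophage, melanocyte and endothelial cells gave no call. At 24 h 3 of 5 T cell genes were lower and 2 of 5 melanocyte genes, 1 of 8 keratinocyte and 1 of 7 neutrophil genes were higher. At 48 h 6 of 7 neutrophil, 3 of 6 macrophage, 2 of 8 keratinocyte and 1 of 5 T cell genes were higher, and 3 of 5 T cell and 2 of 6 fibroblast genes were lower. Their part in the members' values was not tested. The part of muscle, GC tilt and mitochondrial share in these results was not tested beyond these fits.

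Without any ultraviolet light, 2 members were lower at a later time than at 0 h. A joint test over the 6 sham groups called no member (4.95% of genes; lowest adjusted p 0.19 for Hsp90aa1; 3 members at an unadjusted p below 0.05, against 16.4% of genes). Single differences from 0 h called Hspd1 at 48 h (-0.78 ± 0.26, adjusted p = 0.0437), with 176, 390.1, 551, 403 and 201 CPM at 0 h and 191, 233, 233, 157 and 205 CPM at 48 h. They also called Hspa8 at 72 h (-0.52 ± 0.16, adjusted p = 0.0433), with 1212, 1394, 1851, 1796 and 1474 CPM at 0 h and 1019.6, 1022, 1368, 1002 and 1045 CPM at 72 h. In each case 3 or more of the 0 h animals lay above every animal of the later group but at least 1 overlapped. The highest 0 h values, 551 and 1851 CPM, both came from replicate 3. Its mitochondrial share of 34.8% was the highest of all libraries, and these differences were not refitted without it. Both calls were lost with RLE size factors, without a filter on low counts and without the title ending in the fit. Hsp90aa1 differed from 0 h by -0.83 ± 0.37 at 6 h, -1.10 ± 0.38 at 24 h, -0.96 ± 0.38 at 48 h and -1.09 ± 0.38 at 72 h, each short of the threshold. The differences from 0 h called 2.11%, 3.62%, 7.4%, 3.57% and 5.66% of genes at 6, 24, 48, 72 and 96 h. GC tilt had a sham median of -1.12 at 0 h and 0.16 at 48 h, and the part of that shift was not tested.

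Of 74 other genes listed, few were called at 40 mJ/cm2 in the fits without a covariate. The lists hold chaperones and their cofactors, mitochondrial proteases, heat shock regulators and cold-inducible RNA-binding genes. At 6 h 0 of 74 were called, while 61 lay above 0 (median 0.31, the same as the members' median). Among them all 8 subunits of TRiC, the cytosolic chaperonin that folds actin and tubulin, were above 0 (median 0.47), as were 15 of 18 HSP70 and HSP90 co-chaperones (median 0.33). At 24 h 3 of 74 were called, against 2.92% of all genes, all higher: the TRiC subunit Cct3 (0.65 ± 0.16, adjusted p = 0.0242), the HSP70 relative Hspa14 (0.60 ± 0.14, adjusted p = 0.0231) and the protein disulfide isomerase Pdia4 (0.55 ± 0.13, adjusted p = 0.0205). All 11 endoplasmic reticulum chaperones had values above 0 then (median 0.44). At 48 h 3 of 74 were called, against 7.73%: Pdia4 (0.53 ± 0.16) and Pdia6 (0.53 ± 0.15) were higher and the J-domain gene Dnaja4 was lower (-0.63 ± 0.15, adjusted p = 0.00889). The transcription factor gene Hsf1, whose protein drives the heat shock response, was at 0.65 ± 0.34 at 6 h (adjusted p = 0.335), and Hsf2, Hsf4 and Hsbp1 were not called at any time in the fits without a covariate. With GC tilt Hsf1 was higher at 6 h (0.41 ± 0.10, with 14.7% of genes called) and Hsf2 lower at 24 h (-0.45 ± 0.10, 19.7%). With the muscle level Hsf1 (0.97 ± 0.33) and Hsf4 (1.20 ± 0.41) were higher and Hsf2 lower (-0.96 ± 0.27) at 24 h, with 24% of genes called. At 48 h 1 of these 4 genes was lower with each of GC tilt, mitochondrial share and muscle level. Those fits called 14.8%, 11.4% and 25.9% of genes. At 72 h 1 of the 4 was lower with GC tilt.

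With GC tilt in the fit, more of these other genes were called, and so were more over the whole table. The share of all genes went from 4.89% to 14.7% at 6 h and from 2.92% to 19.7% at 24 h. At 6 h 20 of 74 were higher and 1 was lower, among them 7 of 8 TRiC subunits, against 14.7% of all genes. The other covariates gave fewer at 6 h: with the mitochondrial share 8 of 74 and 0 of 8 TRiC subunits (9.41% of genes), and with the muscle level 11 of 74, 10 of them higher, and 3 of 8 (9.86%). With GC tilt at 24 h 22 were higher and 3 lower, against 19.7%, and at 48 h 5 were higher and 6 lower, against 14.8%. Those at 24 h included 6 of 8 TRiC subunits and 8 of 11 endoplasmic reticulum chaperones, such as Hspa5 (0.52 ± 0.14), the HSP70 of that compartment, and Hyou1 (0.64 ± 0.12). Hspa4, an HSP110 relative of Hsph1, was 0.51 ± 0.12 at 6 h and 0.47 ± 0.08 at 24 h. The cofactors of HSP90 Ptges3 (0.75 ± 0.16) and Ppid (0.64 ± 0.10) were higher at 6 h. With the mitochondrial share in the fit 10 of 11 endoplasmic reticulum chaperones and 6 of 8 TRiC subunits were higher at 24 h, against 18.2% of genes called. With the muscle level 4 of 11 and 3 of 8 were, against 24%.

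Between animals of the same group, members fell into sets that varied together. Correlations were taken over the 143 libraries with more than 1 M counts, after the group mean was taken out, for 45 pairs of members. Hsp90aa1 and Hspd1 were tied most closely, with Pearson's r = 0.919 and Spearman's rho = 0.935 (permutation p = 1e-05, the smallest that the resampling can give; adjusted over the pairs 1.87e-05 and 1.96e-05). Without the 2 libraries farthest in Hsp90aa1, r was 0.933, and it was 0.898 among libraries titled R1_001 and 0.952 among those titled R1. Hsp90aa1 and Hsph1 gave r = 0.839 and rho = 0.838 (0.83 without the farthest 2; 0.837 and 0.845 by title). Hsp90ab1 and Hspb1 gave r = 0.84 and rho = 0.766 (0.832; 0.727 and 0.899), each with the same smallest permutation p.

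The 2 sets opposed each other, and so did the 2 HSP90 genes. Hspb1 and Hspd1 gave r = -0.879 and rho = -0.847 (-0.87 without the farthest 2; -0.843 and -0.898 by title). Hsp90aa1 and Hsp90ab1 gave r = -0.659 and rho = -0.543 (-0.641; -0.58 and -0.73), again each at the smallest permutation p of 1e-05. The twins Hspa1a and Hspa1b gave r = 0.69 and rho = 0.694 (0.707; 0.681 and 0.667), with p = 1e-05, and they share windows as given above. Hspd1 and Hspe1, the divergent pair, gave r = 0.59 and rho = 0.641 (0.552; 0.495 and 0.635) with p = 1e-05.

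**Figure D4:**
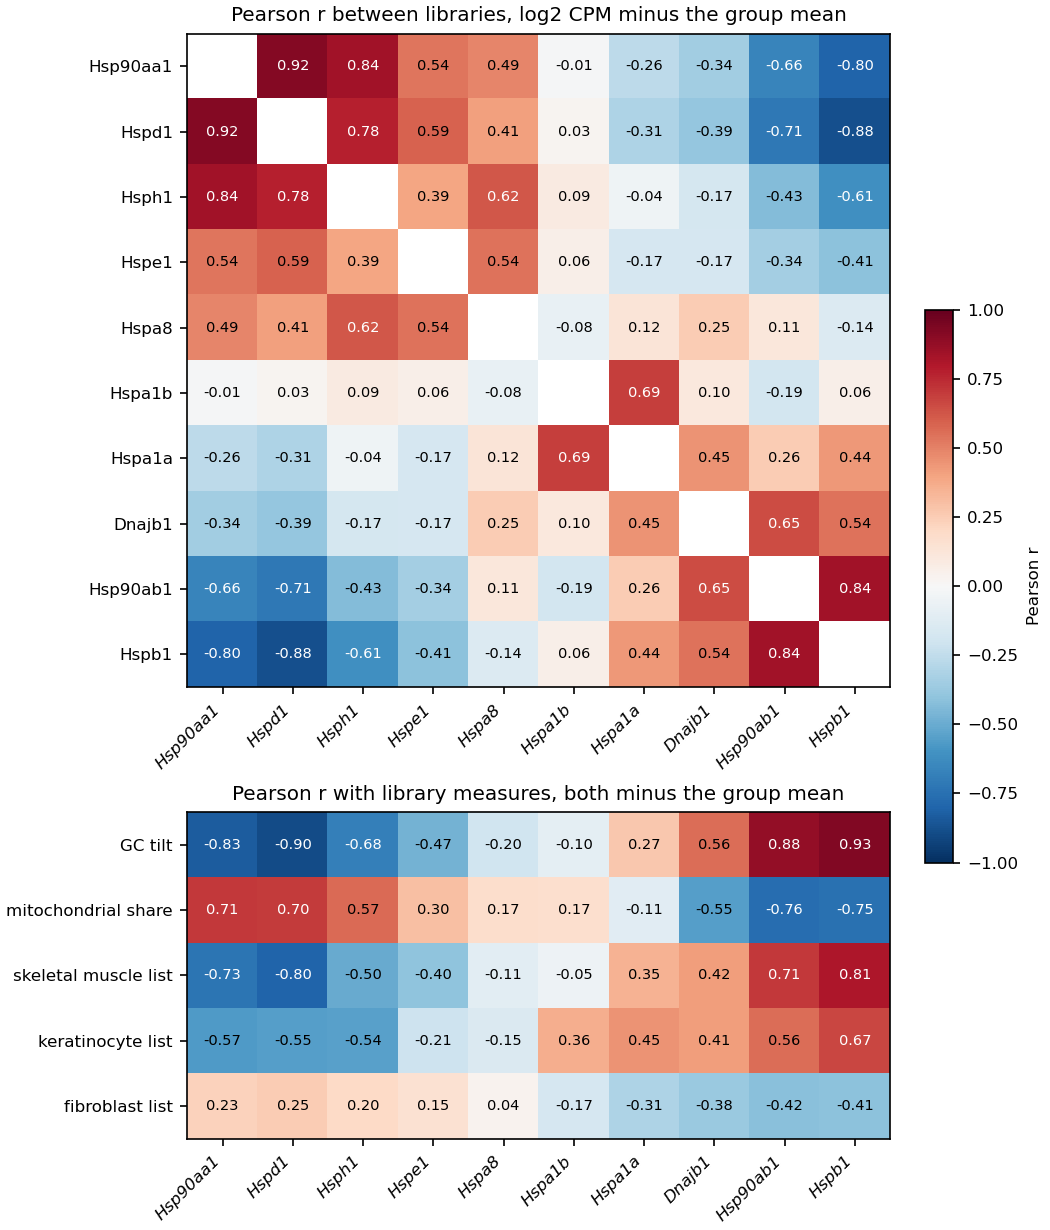
Pearson's r between members over 143 libraries after group means were taken out, as a heat map (upper), and between members and 5 library measures, treated the same way (lower); red is positive and blue negative. Hsp90aa1, Hspd1 and Hsph1 form a block at 1 end and Hsp90ab1 and Hspb1 at the other, and the row of GC tilt runs from -0.898 for Hspd1 to 0.928 for Hspb1.

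The opposing members also moved in opposite directions with the GC tilt of the library. Of the 10 transcripts Hspb1 is the richest in G and C (61.7%, above 98.3% of genes) and Hsp90aa1 the poorest (43.7%, above 18.5%). Over the same 143 libraries, among 120 pairs of a member with a library measure, GC tilt gave r = 0.928 with Hspb1 (rho = 0.899; 0.922 without the farthest 2 libraries; 0.874 and 0.964 by title). With Hspd1 it gave r = -0.898 (rho = -0.881; -0.897; -0.873 and -0.914), and with Hsp90aa1 r = -0.832 (rho = -0.838; -0.84; -0.864 and -0.852). Each had a permutation p of 1e-05, adjusted 3.08e-05. GC share did not order the members alone: Hspa1a, at 59.0%, gave r = 0.266, and Hsp90ab1, at 51.0%, gave 0.881. At equal GC tilt Hsp90aa1 with Hspd1 kept r = 0.702 and with Hsph1 0.67, and Hspa1a with Hspa1b stood at 0.748. Hsp90aa1 with Hsp90ab1 moved from -0.659 to 0.282, Hspb1 with Hspd1 from -0.879 to -0.28, Hsp90ab1 with Hspb1 from 0.84 to 0.129, and Hsp90ab1 with Hspa8 from 0.11 to 0.622. The mitochondrial share and the muscle level moved with the same members: r was 0.706 and -0.73 for Hsp90aa1 and -0.75 and 0.81 for Hspb1. Correlations of members at equal mitochondrial share or muscle level were not taken, and the cause of the opposition was not tested.

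**Figure D5:**
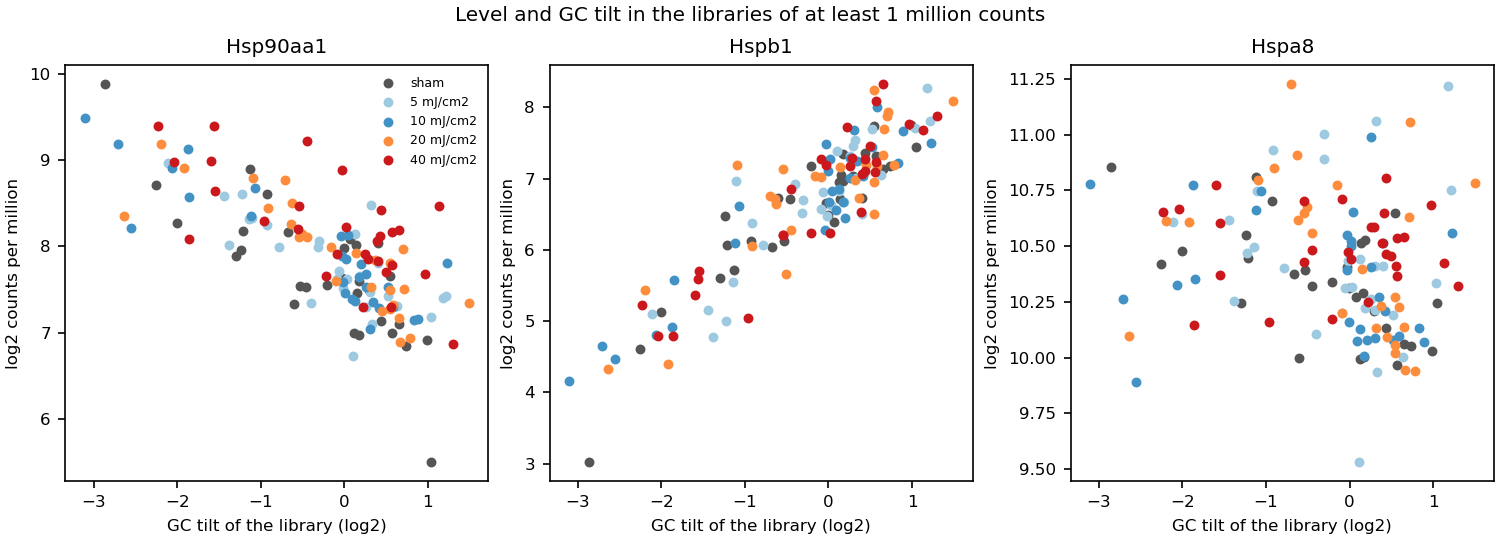
Log2 CPM of Hsp90aa1, Hspb1 and Hspa8 against the GC tilt of the library, in the 143 libraries of at least 1 M counts; each point is an animal, coloured by dose. Hspb1 climbs and Hsp90aa1 falls along the axis, with r of 0.928 and -0.832 after group means were taken out, while Hspa8 changes little (-0.203).

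Across the 30 group means, the genes most like each member were sought among 13108 genes (mean log2 CPM not below 1) and are given as a description, since groups share times and library properties. Hsp90aa1 was most like Nop58 (r = 0.924), Ddx21 (0.915) and Clic4 (0.913), the first pair of which act in ribosome assembly. Hspd1 was most like Bzw1 (0.978), Hspa4 (0.969) and Gspt1 (0.947). Hspa8 was most like Dnajb11 (0.842), Manf (0.823) and Stip1 (0.814). Of these, Stip1 is listed among the HSP70 and HSP90 co-chaperones and Dnajb11 among the endoplasmic reticulum chaperones. Hsph1 had Hsp90aa1 as its second nearest gene (0.797). Hspb1 was most like Ecm1 (0.914), Hspe1 like Ppia (0.870) and Hsp90ab1 like Tprn (0.838). For Hspa1b (Ndufc2, 0.721), Hspa1a (H2-Q7, 0.719) and Dnajb1 (Sumo3, 0.628) the nearest gene was farther off.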

How the data were processed

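Expected counts for each gene were deposited by the authors in 1 table, in which 12.6% of values are not whole. Per the submitters' processing notes, the build was GRCm39 and the tools were DESeq2 1.36.1, STAR 2.7.10a, fastp 0.23.0 and bcl2fastq 2.20.422. The counting program, the annotation and any use of strand were not given in the sources used here. Libraries were stranded poly(A) libraries from 300 ng of RNA, read as single 75-base reads, per the labels' protocols. Titles mark 5 libraries as repeats, and 2 of these (48 h, 5 mJ/cm2 replicate 3 and 20 mJ/cm2 replicate 2) carry another figure in ng, whose meaning the labels do not state. Depth ran from 0.18 to 64.6 M counts, which limits the precision of the 2 shallow libraries most. Symbols came from GENCODE vM21 (GRCm38) for 52083 of 55416 genes; genes without one held 0.0906% of counts. That annotation also gave transcript lengths, GC shares and shared 75-base windows.

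Expected counts were rounded and tested in R 4.3.3 with edgeR 4.0.16 (quasi-likelihood F test, TMM factors, filterByExpr with the 30 groups, 18677 genes, two-sided, Benjamini-Hochberg over all genes). The 5 dose groups of a time were fitted together with the title ending (R1_001 in 71 libraries, R1 in 74) as a covariate. Effects between times and sham over times came from 1 fit of all libraries. Printed CPM are scaled by TMM over all 145 libraries. No pair of replicates was alike within counting noise (280 pairs, lowest chi-square per degree of freedom 7.6). Alternatives were DESeq2 1.42.0, RLE size factors, no filter on low counts, no title ending, all libraries in 1 fit, covariates, each title ending alone, no libraries under 1 M counts and leaving out single libraries. The fits were tested on simulated data. Correlations used Python 3.11.15 and scipy 1.17.1, and promoters came from RefSeq (GRCm38.p6). All 10 members are named by rule, and other genes come from lists of chaperones and related genes and of cell type markers: those called, and the 3 genes most like each member. Hsf1, Hsf2, Hsf4, Hsbp1, Hspa5, Hyou1, Hspa4, Ptges3 and Ppid are named from the lists after their values were seen. The members and lists were chosen with earlier results of these data known.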

Additional observations from a re-analysis of the deposited data

Results flagged for a closer look

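Among the sham and 40 mJ/cm2 groups, 10 of 120 member and group combinations held 1 animal far from the others of its group, where chance gives about 1 in 20, or 6. In CPM, 5 of the 10 came from 1 sham animal at 72 h, replicate 3. It was high in Hsp90aa1 (419.41, others 120.1 to 161), Hspa8 (1367.8, others 1002 to 1045), Hspd1 (412.26, others 152 to 189.9) and Hspe1 (109.38, others 47.8 to 55.3), and low in Dnajb1 (41.344, others 58.3 to 64.1). Its GC tilt was -2.25 and its mitochondrial share 12.0%, the lowest and highest of its group, and the part of these was not tested. Hsp90ab1 was low in replicate 4 of sham (663.09, others 1036 to 1112) and of 40 mJ/cm2 (760.49, others 1164 to 1209.6) at 6 h, the libraries with the lowest GC tilt of their groups. Hspa8 was high in 40 mJ/cm2 replicate 3 at 48 h (1790.5, others 1392 to 1463). In 40 mJ/cm2 replicate 5 at 72 h, Hspa1a was high (34.223, others 11.8 to 14.4) and Hsph1 low (41.861, others 58.1 to 65.9), and that library had the highest GC tilt of its group, 1.30.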

How the results depend on the processing

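No log2 fold change of a member that was called or had an unadjusted p below 0.05 changed sign under the alternatives run for it. Values near 0 that were not called did: Hspb1 at 40 mJ/cm2 at 48 h, -0.09 as reported, was 1.40 and called with the muscle level and 0.02 with libraries titled R1 alone, and Hsp90ab1 at 24 h, -0.01, was 0.01 with RLE size factors. At 40 mJ/cm2 at 6 h the number of members called, 1 as reported, was 2 with the mitochondrial share or GC tilt as a covariate and 0 with libraries titled R1_001 alone, with those titled R1 alone and with all libraries in 1 fit; leaving out single libraries gave 0 to 1. At 24 h, 0 as reported became 1 with DESeq2 and 4 with the mitochondrial share or GC tilt. At 48 h, 0 became 1 with the muscle level and 2 with the mitochondrial share or GC tilt. At 20 mJ/cm2, 0 became 1 with GC tilt at 6 h and, at 48 h, 1 with DESeq2, without a filter on low counts or with the muscle level, and 0 to 1 when single libraries were left out. The slope over dose at 6 h went from 0 to 1 with DESeq2, without a filter on low counts and without the shallow libraries. Sham at 48 h against 0 h and at 72 h against 0 h each went from 1 to 0 with RLE size factors, without a filter on low counts and without the title ending. The cause was not tested. The title endings alone leave 2 or 3 animals in a group. Leaving out single libraries was not run for the difference between times or for sham over times. For 5 and 10 mJ/cm2 only sham libraries were left out. No paired analysis was possible because each animal has its own number and no label links animals across groups.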
